A study of Mus musculus with 908 samples.

Results

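The cells described here were single tumour keratinocytes from mouse skin squamous cell carcinoma, sorted after adoptive cell transfer (ACT), a therapy that infuses immune cells. They came from plates OT2 and OT_B and were kept when at least 2000 genes reached a TPM of 1 (TPM is a share of the library's transcripts corrected for gene length, so levels can be compared between genes). That rule kept 87 cells from the 96 wells of OT2 and 90 from the 96 wells of OT_B, of 908 libraries in the whole series. The fullest well left out had 1684 genes and the emptiest well kept had 3063, so the threshold fell in a gap.

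After transfer, the label gave the strain as TRE-OVA;TRE-HrasG12V:PGK-rtTA3P2AmCherry, which by its name pairs inducible ovalbumin and inducible activated Hras (G12V) with PGK-driven rtTA3 and mCherry, and the cells were taken as mCherry+ with no gate on integrin α6, CD34 or CD44. The cells used for comparison were sorted before therapy from TRE-HrasG12V;SBE-mCherry-PGK-rtTA3 tumours, which carry no ovalbumin transgene and whose mCherry is driven by SMAD-binding elements (SBE), a reporter of TGF-beta signalling. They were reporter-positive cells (mCherry+, CD44+, CD34+ and integrin α6+; 73 from plate CSC1 and 32 from plate CSC2) and 91 cells with integrin α6 but without mCherry, CD44 and CD34. All tumours came from mice of postnatal day 60 to 90 with the sex given as Mixed, and every gate removed cells with surface CD45 (leukocytes), CD117 (mast cells and melanocytes), CD140a (fibroblasts) or CD31 (endothelium). No label names an animal, so each group counts as 1 sample, no test was made between groups, and every difference between them is a description of these cells.

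Epidermal keratinocytes divide in a basal layer, where Krt5 and Krt14 fill the cytoplasm and integrins and laminins hold the cell to the basement membrane. Cells that leave this layer switch to Krt1 and Krt10, add new desmosomal cadherins, and later crosslink small proline-rich proteins into the cornified envelope. Wounding, inflammation and transformation bring out Krt6a, Krt6b, Krt16 and Krt17 together with the alarmins S100a8 and S100a9.

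Genes per cell ran from 3063 to 9120 with a median of 6657 (6885 on OT2 and 6284 on OT_B). They were 7769 on CSC1, 7575 on CSC2 and 6810 among the CD44-negative cells. TPM keeps no read depth, so the depth in reads is unknown. A set of 8 ribosomal RNA rows took a median of 74.4% of the TPM per cell. Values are given as deposited, as shares of a total that includes these rows, unless said to be rescaled. The median share of these rows was 71.6% on OT2, 76.4% on OT_B, 72.4% on CSC1, 66.1% on CSC2 and 72.5% among the CD44-negative cells. By correlation of whole profiles, 68 cells of OT2 and 64 of OT_B had a further library on plates OT_A or OT1, 44 of them under another well name, with r from 0.673 to 0.953. Different cells of OT2 and OT_B reached a median r of 0.518 and at most 0.726, so the ranges overlap. Those repeat libraries served to show how well a value repeats and, as an alternative, stood in for the cells described. They were paired by the same profiles, so part of any agreement between them may come from the pairing. Among the reporter-positive libraries 98 matched a library that is labelled after transfer and is none of the cells described here, 7 did not, and 0 of the CD44-negative libraries did. For these 98 the labels of the matched libraries conflict, so their label as sorted before therapy is in doubt and is used below only as a label.

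Keratinocyte markers were present in every cell. The summed TPM of 15 keratinocyte markers ran from 2883 to 48407, and 13 of the 15 were detected (TPM of at least 1) in over 50% of cells. Of 8 T cell markers, 6 were detected in no cell and the sum of all 8 reached at most 37.2. All 4 mast cell markers were at 0, as were 4 of 8 myeloid markers. Single genes from other lists were common all the same: Fbln1, a matrix protein, in 79.7% of cells, Mgst1 in 71.2%, Sox9, a follicle and progenitor factor, in 68.9%, and Cxcr2, a chemokine receptor, in 36.2%. The summed TPM of the neutrophil list reached 29297, and it holds S100a8 and S100a9, which stressed keratinocytes make as well.

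The 6 marker genes differed widely in how many cells carried them. Krt5 (chromosome 15, 101707070 to 101712898 in mm10, GENCODE M21) was detected in 88.1% of cells (exact 95% interval 82.4 to 92.5, counting error only), with a lowest, median and highest TPM of 0, 685 and 3326. Krt14 (chromosome 11, 100203162 to 100207548), its partner, was detected in 98.3% at 0, 6632 and 16429. Krt10 (chromosome 11, 99385254 to 99389364), the spinous keratin, was detected in 68.4% (60.96 to 75.1) at 0, 16.4 and 2762. So the basal pair was near-universal, and Krt10 ran from absent to abundant. Krt6b (chromosome 15, 101676023 to 101680287), of wounded and tumour epidermis, was detected in 84.2% (77.95 to 89.2) at 0, 905 and 8345. Krt80 (chromosome 15, 101347444 to 101370162), a keratin of advanced differentiation, was detected in 39 cells (22.03%, 16.2 to 28.9) and peaked at 345.95. Il33 (chromosome 19, 29925114 to 29960718), a nuclear alarmin cytokine, was detected in 63 cells (35.6%, 28.6 to 43.1) and peaked at 340.8. Krt80 and Il33 thus marked minorities, with a median of 0.

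Keratins, a lipid carrier and protease inhibitors headed the most expressed nuclear protein-coding genes, ahead of the translation machinery. Mitochondrial genes were left out of this order, as was Lars2, a coding gene counted among the ribosomal rows. Krt14 averaged 6744 TPM, Fabp5, the epidermal fatty acid carrier, 3910.3, Krt6a 3129 and Krt16 2629. BC100530 (2414) and Stfa3 (1989), both stefin A cysteine protease inhibitors, Lgals7, the keratinocyte galectin (2225), and Sprr2a2, an envelope precursor (1984), followed. Krt6b (1780.1), Krtdap, a secreted product of differentiating keratinocytes (1591), Sfn, the 14-3-3 protein of stratified epithelia (1119), and Ly6d, a surface protein of squamous epithelium (1118), were the other epithelial genes among the leading 25. The remaining 13 were Actb, Gapdh, Eef1a1 and ribosomal protein genes. Together the 25 genes held 6.70% of the non-ribosomal TPM in the lowest cell, 18.9% in the median cell and 34.2% in the highest. Krt6a and Krt6b, the Sprr2 genes and the stefins have close paralogs, so reads may be split among copies.

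A high mean did not mean an even level. Lgals7 reached TPM 1 in every cell, from 358.1 through a median of 1809 to 15895. Sprr2a2 had a median of only 469.1 and a highest cell of 23617, so its mean lay far above its median. Fabp5 was detected in 98.3% of cells with a median of 3935 and a highest value of 23387.5. Each plate alone kept at least 24 of the leading 25, though not their order.

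**Figure D1:**
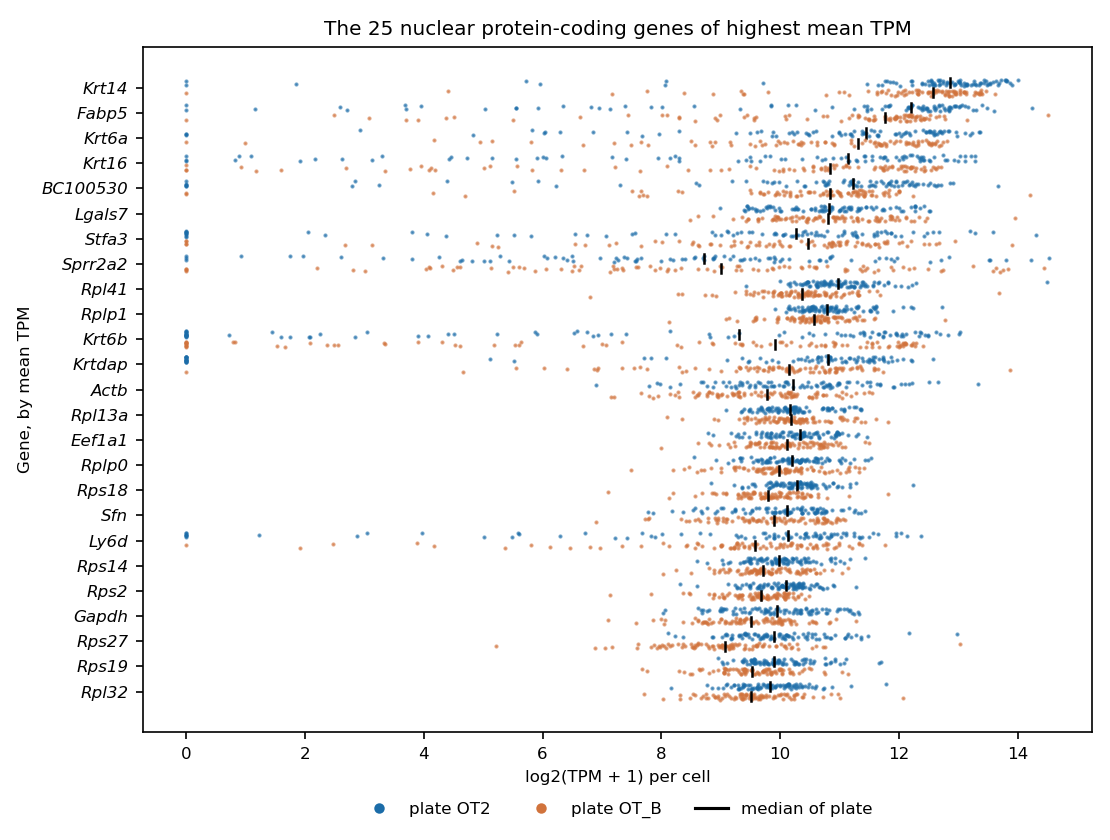
Each point is 1 cell and shows log2(TPM + 1) on the x axis for the 25 nuclear protein-coding genes of highest mean TPM, Lars2 left out (y axis), with OT2 and OT_B in separate colours and a bar at each plate's median. Ribosomal protein genes and Sfn form tight rows of points, while Krt16, Sprr2a2 and Krt6b spread from 0 to highest TPM values of 9957, 23617 and 8345.

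Genes found in every cell were few. Of 46517 gene rows, 21013 reached TPM 1 in at least 1 cell, and 6078 did so in at least 50% of cells. Every cell had 1.02% of the detected genes in common, and these are called universal here. Ribosomal protein genes made up 66 of the universal genes (30.8%), and 6 were not protein coding. At the other end, 2713 genes were detected in exactly 1 cell. On OT2 alone the universal share was 2.01%, and in the repeat libraries it was 0.528%, so it follows the libraries used.

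Beyond the ribosome, the universal genes included junction, glycolysis and antigen presentation genes. Trp63, the master regulator of stratified epithelium, was the single universal member of 14 basal genes, with TPM from 1.96 through a median of 43 to a highest value of 169.1. Of 13 desmosome and adherens junction genes, 6 were universal: Dsp, Pkp1, Pkp3, Jup, Perp and Cdh1. Desmoplakin (Dsp), which ties desmosomes to keratin, ran from 19.4 through 193.7 to 348.8, and E-cadherin (Cdh1) from 2.09 through 60.6 to 258.4. Glycolysis gave 6 of 20 (Aldoa, Gapdh, Pgam1, Eno1, Pkm and Ldha), and redox defence gave Prdx1 and Txn1. The MHC class I chain genes B2m, H2-K1 and H2-D1 were universal as well, as were the AP-1 subunit Junb and the chaperone Hspa8. None of the 14 spinous, 23 granular or 12 stress genes was detected in all cells.

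The steadiest universal genes belonged to translation. Rpl19 had the smallest SD of log2(TPM + 1), 0.50, with TPM from 115.2 through 803 to 1956. Rps16 (SD 0.50), Rps24 (0.52), Rps10 (0.53), Tpt1, a translation-associated tumour protein (0.53), and Gnb2l1, the ribosomal scaffold RACK1 (0.54), followed within a narrow band. Over all universal genes the median SD between cells was 0.83, against a median of 0.36 between repeat libraries of 1 cell.

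Differentiation, wound and antimicrobial genes led the list of most variable genes. Among 3464 genes ranked by spread above the trend for their level, 26 of the top 40 were nuclear protein-coding genes. Krt6b ranked first, with an SD of 4.55, and Krt1 second, with a median of 46.2 and a highest cell of 7428. Krt16, S100a8, Krt5, Gjb2, S100a9 and Sprr1b came next among coding genes. Gjb2 encodes connexin 26, a gap junction protein of wounded epidermis, and was detected in 77.97% of cells at a median of 124.98 and a highest TPM of 2400.02. S100a8 was detected in 68.4% at a median of 78.7 and a highest TPM of 14381. For each of these 26 genes, cells kept much the same order in their repeat libraries, with Spearman rho of 0.90 to 0.99. The profiles used for pairing hold these genes, so part of that agreement may be built in.

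The other 14 rows of the top 40 repeated poorly. They were mt-Co2, mt-Atp6 and mt-Co3 of the mitochondrial chromosome and 11 pseudogene, microRNA or unclassified rows, with rho between -0.11 and 0.44. mt-Co2 was detected in 49.2% of cells, while mt-Co1 was detected in 98.9%. Mitochondrial genes have nuclear copies of near-identical sequence. Of the 25 most expressed genes, 9 were also among the 40 most variable, Krt6a, Krt6b, Krt16, Fabp5 and Krtdap among them.

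**Figure D2:**
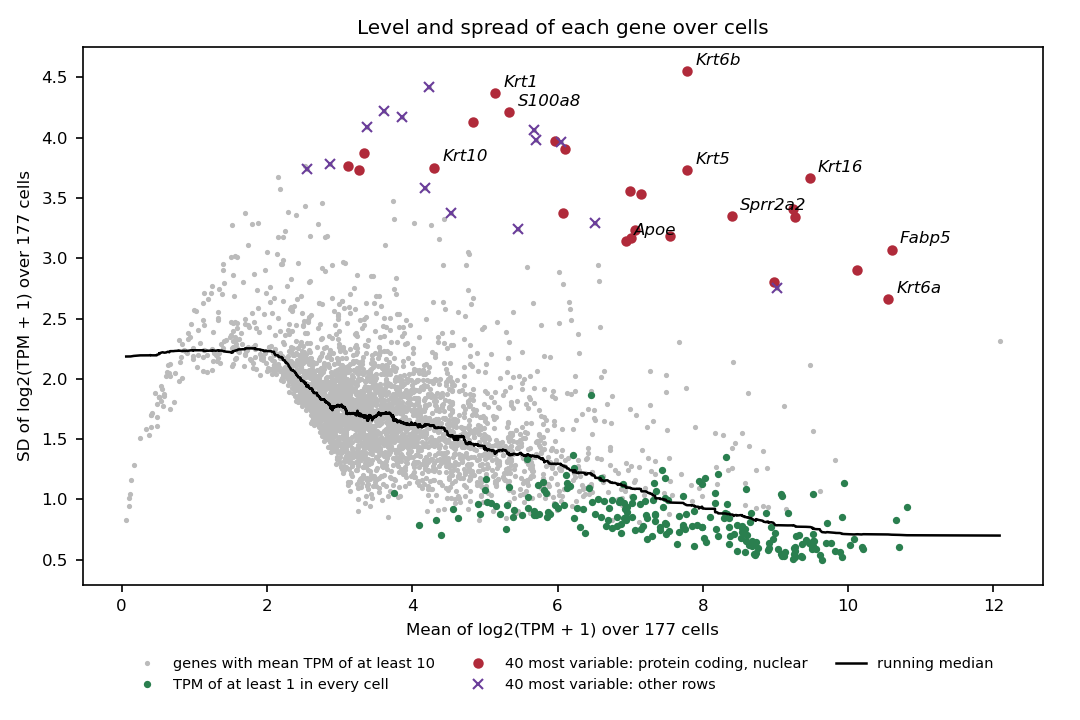
Each point is a gene with a mean of at least 10 TPM; the x axis is the mean and the y axis the SD of log2(TPM + 1) over the cells of both plates, and the line is the running median. Krt6b and Krt1 stand at SDs of 4.55 and 4.37, while the genes found in every cell lie low, with a median SD of 0.83.

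The 200 most variable nuclear coding genes fell into 7 groups of 5 or more genes that rose and fell together over cells. The largest group, of 51 genes, held the basal and basement membrane genes Krt5, Itgb4, Itga6, Itga3, Lamb3, Lama3, Col17a1 and Col7a1, along with Cotl1, an actin-binding protein, S100a10, and the ferritin genes Ftl1 and Fth1. A group of 29 held Krt1, Krt10, Krtdap, the desmosomal cadherins Dsg1a and Dsc1, and Calm4, a calmodulin-related protein of differentiating skin. The scores of these groups ran against each other over cells, with rho of -0.80 (-0.87 on OT2, -0.74 on OT_B and -0.80 in repeat libraries). A group of 35 held Krt6a, Krt6b, Krt16, Gjb2, Gjb6, Sprr1a, Sprr1b, S100a8, S100a9 and Slpi. It went with the spinous group (rho 0.49) and against the basal group (-0.47). The basal group's score followed the number of genes per cell (rho 0.72), and the spinous group's ran against it (-0.39). The part of genes per cell in these patterns was not tested.

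Promoters are shown of Krt5 (basal), Krt10 (spinous), and Sprr1b (envelope) and S100a8 (alarmin), both of the group that held Krt6b. Each run is the 120 bases just before the RefSeq transcription start (GRCm38.p6), on the gene's strand, 5′ to 3′, with TATAAA or TGANTCA in capitals. The motif TATAAA is the core of a TATA box, TGANTCA covers the AP-1 site but allows any middle base, and both strands were searched.
Krt5 (chr15:101712906-101713025, minus strand): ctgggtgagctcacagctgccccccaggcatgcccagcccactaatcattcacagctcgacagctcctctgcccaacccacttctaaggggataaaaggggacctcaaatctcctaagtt
Krt10 (chr11:99389365-99389484, minus strand): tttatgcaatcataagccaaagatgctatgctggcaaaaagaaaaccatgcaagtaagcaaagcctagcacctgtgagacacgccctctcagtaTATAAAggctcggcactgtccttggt
Sprr1b (chr3:92438780-92438899, minus strand): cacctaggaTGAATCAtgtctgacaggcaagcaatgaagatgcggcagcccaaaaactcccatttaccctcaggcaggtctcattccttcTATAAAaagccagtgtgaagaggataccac
S100a8 (chr3:90668951-90669070, plus strand): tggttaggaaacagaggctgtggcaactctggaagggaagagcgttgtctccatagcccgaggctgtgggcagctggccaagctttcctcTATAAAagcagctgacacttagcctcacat
Counting back from the start as -1, Krt10 had TATAAA with its first base at -26, and Sprr1b and S100a8 at -30. Sprr1b also had TGANTCA at -111, and the Krt5 window held neither. TATAAA was found in 6.76% of 27025 such windows (1 per gene), in 1 of 38 windows of the basal group, in 6 of 24 of the Krt6b group and in 5 of 18 of the Krt10 group. TGANTCA was found in 3.40% of all windows, in 2 of 38, 3 of 24 and 5 of 18 of the same groups. A match describes letters only, and genes without a window in the reference table were not counted.

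Cells were spread along an axis from basal to spinous expression. The score of a list is the mean log2(TPM + 1) of its genes, and over cells the basal list (14 genes) and the spinous list (14 genes) correlated at rho -0.79 (-0.83 on OT2, -0.75 on OT_B, -0.80 in repeat libraries). The difference, spinous minus basal, ran from -7.81 through a median of 2.27 to 6.37, and repeat libraries placed cells in nearly the same order (rho 0.99). It was above 0 in 69.5% of cells, with plate medians of 2.05 on OT2 and 2.49 on OT_B. It ran against genes per cell (rho -0.57), whose median was 7520.5 in the most basal bin of 36 cells and 5236 in the most spinous bin of 35.

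**Figure D3:**
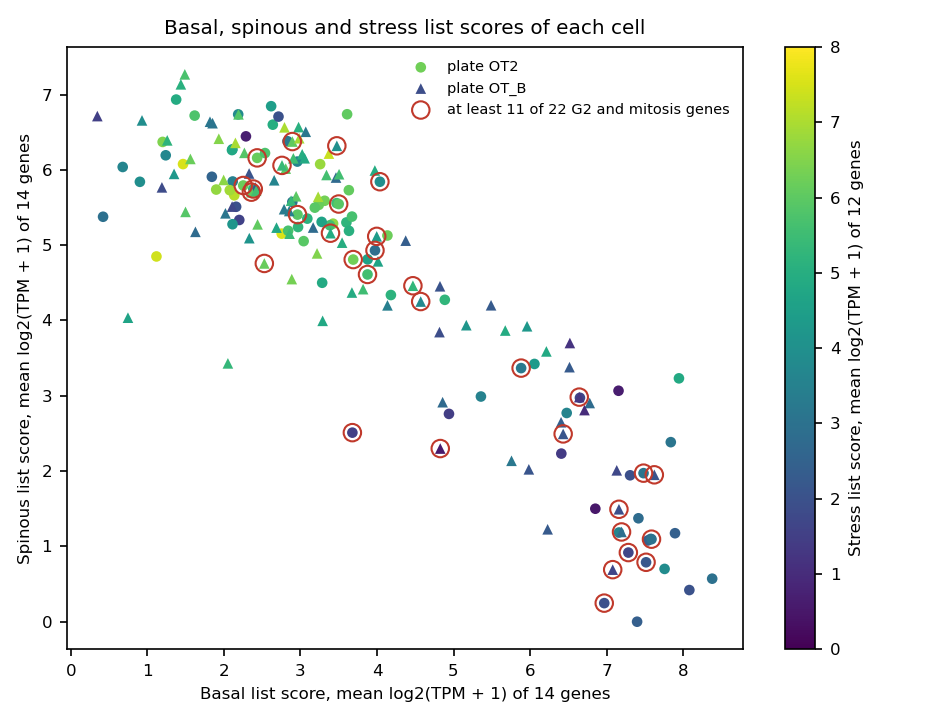
Each point is 1 cell (circles OT2, triangles OT_B), placed by its basal list score on the x axis and its spinous list score on the y axis, both as mean log2(TPM + 1), and coloured by its stress list score. The scores correlate at rho -0.79, and of the 32 ringed cells with at least 11 of 22 mitotic genes, 11 are in the most basal bin and 0 in the most spinous bin.

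The keratins followed this axis in steps when the cells were split into 5 bins of 35 or 36. Krt5 and Krt10 belong to the lists, so their trends are built in: Krt5 went from a mean of 1927 TPM in the most basal bin to 74.7 in the most spinous bin, and Krt10 from 1.14 to 750.0. Krt14 stayed high throughout, with bin means of 6915, 7303, 8655, 5870 and 4917. Krt6b and Krt16, outside both lists, were highest in the middle. Krt6b had bin means of 17, 914, 3102, 2526 and 2354, and Krt16 of 145.7, 2268, 4523, 3459 and 2767. Krt17, a further stress keratin, varied little between bins, from 538.7 to 624. Il33 was detected in 2 cells of the most basal bin and in 23, 17 and 12 of the 3 most spinous, while Krt80 was detected in 18 of 35 cells of the last bin and 3 of 36 of the first.

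Basal and spinous transcripts were not exclusive within a cell. Krt5 and Krt10 were detected together in 57.6% of cells (49.99 to 65.01), Krt5 without Krt10 in 54, Krt10 without Krt5 in 19 and neither in 2. Their levels still opposed each other, with rho -0.69 (-0.74 on OT2 and -0.63 on OT_B), and the median Krt10 level was 9.79 TPM in cells with Krt5 and 169.7 in cells without. Krt1 and Krt10 went together (rho 0.81; both in 60.5% of cells). Plates differed here: Krt10 was detected in 59.8% of OT2 cells and 76.7% of OT_B cells, and Krt1 in 52.9% and 80%. Whether any well held more than 1 cell was not tested.

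Of 10271 genes outside both lists, 2.29% had a rho above 0.3 with the axis in both plates and 13.7% a rho below -0.3. Calm4 followed the axis most closely (rho 0.88), from 9.86 to 1341 TPM between the end bins. Cst6, an inhibitor of cornification proteases (rho 0.74), and Casp14, the caspase of cornification (0.73; 0 in the most basal bin and 64.4 in the most spinous) were also higher at the spinous end. Cotl1 (-0.82), S100a10 (-0.81), Msn, which links actin to the membrane (-0.80), and Col18a1, a basement membrane collagen (-0.79), were higher at the basal end. Ftl1 averaged 649 TPM in the most basal bin and 3.58 in the most spinous, and Fth1 486.4 and 46.1, and ferritin genes have many processed copies. Cd276 (B7-H3), an immune ligand, went from 30.4 TPM in the most basal bin to 0 in the last 2 bins.

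**Figure D4:**
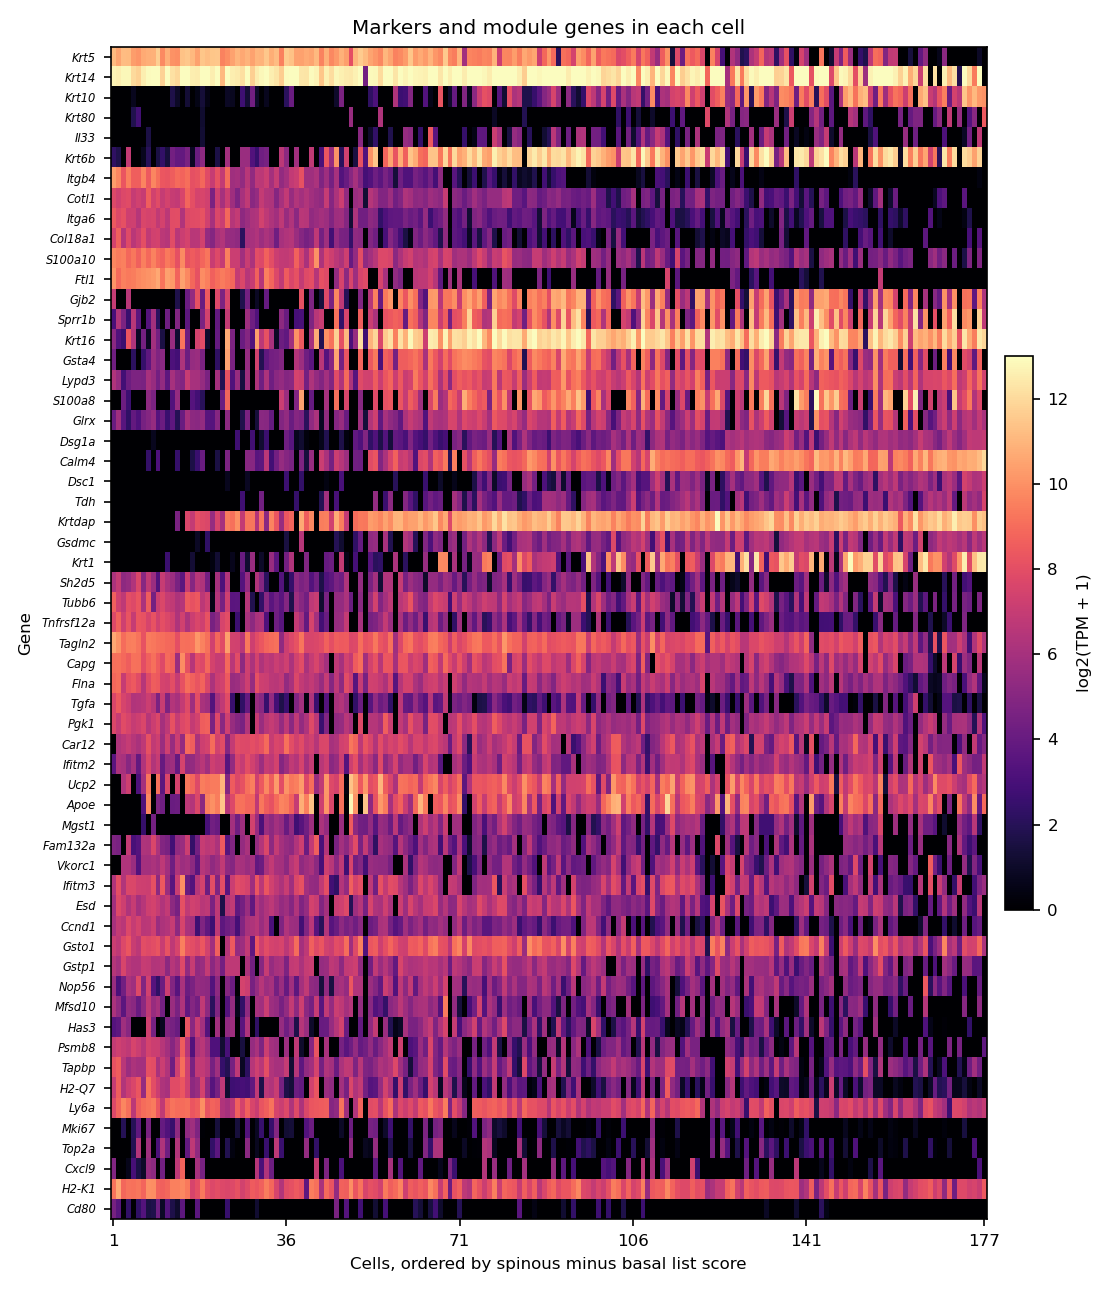
Rows are the 6 markers, leading genes of the 7 coexpressed groups and 5 further genes; columns are the cells ordered from the lowest to the highest spinous minus basal score, and colour is log2(TPM + 1) from 0, capped at 13. Itgb4 and Ftl1 fade from left to right, Calm4 and Krtdap do the reverse, and Krt6b and Krt16 are high from the middle on.

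Genes nearest to each marker over cells matched these groups. Over all cells of both plates and a pool of 10297 genes, Cotl1 (rho 0.77), Itgb4 (0.77), Itga6 (0.76), S100a10 (0.75) and Dst, the hemidesmosomal plakin (0.73), were nearest to Krt5. Krt14 was nearest to Krt6a (0.75), the glycolytic enzymes Eno1 (0.70) and Ldha (0.65), and Sfn (0.68). Krt6b was nearest to Krt16 (0.87), Gjb2 (0.85) and Krt6a (0.84), though Krt6a and Krt6b may share reads. Il33 was nearest to Glrx, glutaredoxin (0.63), and then to Krt16, Gjb2 and Krt6b (0.61 to 0.60). Krt80 stood with sparse genes, Gadl1 (0.59), Oas1f (0.59) and Tprg (0.58). These correlations share plates and genes per cell.

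Stress and envelope genes went together, and both followed the basal to spinous axis to unequal degrees (rho 0.43 for the stress list and 0.68 for the granular and envelope list). Of the 12 stress keratin and alarmin genes, 2 were detected in over 90% of cells (Krt6a and Krt16) and 2 in under 10% (Defb3 and Defb6). S100a8 and S100a9, the calprotectin subunits, were detected together in 59.3% of cells (51.7 to 66.6) with rho 0.90. The granular and envelope list went with the stress list over cells (rho 0.80; 0.81 on OT2 and 0.78 on OT_B). Of its 23 genes none was in over 90% of cells, 16 were in 10% to 90% and 7 in under 10%. Early envelope precursors were frequent: Sprr1b in 79.7% of cells (median 122.7 TPM, highest 6008), Sprr1a in 51.4% (1.35 and 7141) and Ivl, involucrin, in 40.1%. Other cornification genes were mixed: Cst6 was detected in 65.5% of cells, Casp14 in 55.9% and Cnfn in 20.9%. Some members of the list were rare. Lor, loricrin, was detected in 3 cells (1.69%), Flg, filaggrin, in 15 (8.47%, by the fullest of several rows of that name) and Hrnr in 1. Flg2, Sprr3 and Rptn were detected in 0 cells. By a floor of 3 cells this allows a share of up to 1.69% of cells with a detected transcript. It sets no limit on cells that express the gene.

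A group of 18 genes held growth factor genes and their known targets, namely the EGFR ligands Tgfa, Areg and Hbegf, the ERK phosphatase Dusp6, the urokinase gene Plau and the actin regulators Tagln2, Flna, Fscn1 and Capg. Its score correlated at rho 0.89 with the other genes of the EGFR and RAS-MAPK list (0.92 on OT2, 0.83 on OT_B) and at 0.61 with genes per cell. Hbegf was detected in 85.3% of cells at a median of 17.2 and a highest TPM of 481.65. Tgfa was detected in 75.1% (median 9.58, highest 340.4) and Areg in 65.5% (7.5 and 569). So most cells carried at least low levels of EGFR ligands, with a tail of high ones. Hras itself, with reads of the gene and of the transgene not told apart, was detected in 96.6% of cells at a median of 45.9 TPM.

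Smaller groups of genes marked further variation. A group of 8 held Apoe, the lipid carrier, the interferon-inducible membrane genes Ifitm2 and Ifitm3, Car12, a carbonic anhydrase, and Mgst1. Apoe was detected in 88.7% of cells at a median of 206.6 and a highest TPM of 6905. That group ran against the Krt6b group (rho -0.45), and against the granular list at -0.28 on OT2 and -0.74 on OT_B, so the plates differed in strength. Another group of 8 joined Krt14 with Ccnd1, cyclin D1, and the glutathione transferases Gsto1 and Gstp1, and went with the growth factor group (0.68). The last group, of 5, included Psmb8, Tapbp, H2-Q7 and Ly6a and followed the other MHC class I genes (0.87).

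Cells with many mitotic transcripts formed a small subset. Of 22 G2 and mitosis genes at least 11 were detected in 32 cells (18.1%, 12.7 to 24.6), 16 on each plate, while 33 cells had none and 7 lay within 2 genes of the limit. All 32 had Krt5 and 19 had Krt10, with medians of 1044 and 5.86 TPM, against 552 and 19.3 in the other cells. Their median number of genes was 7230.5, against 6518. Mki67, the proliferation antigen, was detected in 52 cells (29.4%), in 18, 12, 13, 8 and 1 cells from the most basal to the most spinous bin. The S phase list followed the basal list at rho 0.61, and genes per cell at 0.72. Cdkn1a (p21), the cell cycle inhibitor, was detected in 98.3% of cells at a median of 108.8 TPM and a highest of 906.

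Transcripts of the MHC class I chain genes B2m, H2-K1 and H2-D1 were detected in every cell, at graded levels. Class I protein was not measured. B2m, the light chain, ran from 11.3 through 361.9 to 2173 TPM, H2-K1 from 12.5 through 287.8 to 1603 and H2-D1 from 14.6 through 224.2 to 889. No cell lacked any of these 3 transcripts. The class I list, of which 8 of 17 genes were detected in over 90% of cells, was higher toward the basal end (rho 0.61 with the basal list), and H2-K1 averaged 477.5 TPM in the most basal bin and 230.4 in the most spinous bin. The housekeeping list did the same: its rho with the axis was -0.61, against -0.58 for class I. From the most basal to the most spinous bin the median class I score went from 5.83 to 3.14 and the median housekeeping score from 8.25 to 6.83. Close class I paralogs may exchange reads. MHC class II was sparse: Cd74, its invariant chain, was detected in 9.04% of cells, H2-Ab1 in 10.2% and the transactivator Ciita in 2.82%.

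The interferon list moved with class I (rho 0.74; 0.78 on OT2 and 0.71 on OT_B), but its members did so unequally. Cxcl9, a chemokine induced by interferon gamma that draws T cells, was detected in 48 cells (27.1%, 20.7 to 34.3; 22 on OT2 and 26 on OT_B). The group was chosen on Cxcl9, so its own level is no result. In these 48 cells, median B2m was 550.2 TPM against 294.8 in the other cells, Psmb8, an immunoproteasome subunit, 45.4 against 4.76 and Gbp2, a guanylate-binding GTPase, 19.7 against 0. Those differences had the same direction on each plate, and genes per cell were similar, at 6742 and 6535. The cells with Cxcl9 also had more Krt5 and Actb on each plate, with pooled medians of 892 against 540.9 TPM and 1170 against 925. Median Krt10 was 4.78 against 25.6, but the plates differed. On OT2 it was 0.555 with Cxcl9 and 28.38 without, and on OT_B 21.55 and 19.94. From the most basal to the most spinous bin, Cxcl9 was detected in 14, 9, 11, 10 and 4 cells. The part of position on the axis in the differences above was not tested. Cd274 (PD-L1) was detected in 6 of the 48 and 15 of the others. The classical type I response genes were nearly silent: Ifit2, Ifit3 and Rsad2 were detected in 0 cells, Ifit1 in 1 and Isg15 in 8.

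Ligands of the B7 family were found in minorities of cells. Cd80, which binds CD28 and CTLA-4, was detected in 35 cells (19.8%), 28.7% on OT2 and 11.1% on OT_B, with a highest TPM of 23.02. It was found in 15, 11, 6, 2 and 1 cells from the most basal to the most spinous bin, and in 34 of the 35 together with Krt5. Its nearest genes were Pla1a (rho 0.57), Upp1 (0.56) and Pthlh, a parathyroid hormone-related peptide of squamous tumours (0.54). Cd274 was detected in 11.9% of cells, Cd276 in 25.99% and Cd47, the phagocytosis checkpoint, in 75.1%. Cd86, Pdcd1lg2 and Ido1 were detected in 0 cells.

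The comparison with cells labelled reporter-positive and before therapy asked which genes set the post-transfer tumour apart from that gate. Of 4273 genes with a mean of at least 10 TPM in either group, 2.43% were at least 2-fold higher after transfer and 10.6% at least 2-fold lower, where a fold is the ratio of means after adding 1 TPM. The median gene was lower by a log2 of -0.33. With TPM rescaled to leave out ribosomal and spike-in rows the shares were 4.796% and 9.68% of 8883 genes and the median -0.13. By their labels, strain, gate and therapy all differ between the groups and cannot be told apart, and genes per cell differ too. For the 98 libraries with a partner labelled after transfer, whether therapy differs is itself in doubt. Against the 7 reporter-positive libraries without a partner labelled after transfer, the shares were 18.7% and 24.1%.

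Spinous genes stood higher after transfer, against all reporter-positive libraries and against the 7 without a partner. Krt10 averaged 236.6 against 7.15 TPM (log2 4.87) and against 2.27 in the 7 libraries (log2 6.18), although it was detected in 68.4% and 65.7% of all cells, so the gap lay in level rather than in the share of cells with the transcript. By the difference of mean log2(TPM + 1), which gives high cells less weight, the Krt10 gap was 2.51 and the Krt1 gap 2.42. Krt1 averaged 644 against 42.1 (log2 3.90) and 37.9 in the 7. The desmosomal cadherin genes Dsc1 averaged 20.8 against 2.18 and Dsg1a 29.7 against 3.84, with 0.669 and 6.44 in the 7. Krt6b was higher as well, 1780.1 against 611 (log2 1.54) and 297.2 in the 7, while Krt14 was level at 6744 against 6751 and 6788. Ccl8, a monocyte chemokine, averaged 94.2 against 2.58 and was detected in 27.7% against 10.5% of cells.

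Lists were counted over every measured member, whether or not it reached a mean of 10 TPM, beside all 23050 genes detected in a cell of either group, of which 1.6% were at least 2-fold higher and 4.37% at least 2-fold lower (median log2 -0.05). Of 14 spinous genes, 5 were at least 2-fold higher and 0 lower, with a list median of 0.37 (1.17 against the 7 libraries). The stress and envelope lists were split against all reporter-positive libraries. Of 12 stress genes 3 were higher and 3 lower (median 0.0008), and of 23 granular and envelope genes 5 were higher and 5 lower (median -0.005). Of the 14 basal genes 7 were at least 2-fold lower and 1 higher (median -1.17), and of 20 matrix and protease genes 15 were at least 2-fold lower and 0 higher (median -1.76). Against the 7 libraries without a partner the basal median was 0.0066 and the matrix median 0.39, so both list medians were lower only with the 98 libraries included. Single basal genes differed from that median in both directions. Krt5 averaged 895.9 TPM after transfer against 1857 in the 7 (log2 -1.05). Itgb1 averaged 25.7 against 78.2, but the 7 had a median of 10.76 and a highest value of 402.33. Itga3 averaged 45.1 against 12.04, with a median of 0 and a highest value of 49.63 in the 7. Krt15 averaged 32.1 against 0, but it was detected in only 9.60% of cells after transfer. Its mean was 5.67 on OT2 and 57.7 on OT_B.

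For several single genes of these lists the difference likewise depended on which reporter-positive libraries were used. Mmp13, a collagenase, averaged 0.895 after transfer, 32.04 TPM in all reporter-positive libraries and 0.920 in the 7 without a partner. Timp1, a metalloprotease inhibitor, averaged 0.890, 17.3 and 0.387, and Plau, urokinase, 75.96, 295.1 and 59.3. For these 3 genes the level after transfer was thus far below that of all reporter-positive libraries and near that of the 7. Means of the 7 rest on few cells with a wide spread. Plau ran from 0 to 138.4 among them, Mmp13 from 0 to 3.53 and Timp1 from 0 to 2.71. Dsp, Cdh1 and B2m, found in every cell after transfer, had a lowest value of 0 among the 7. The part of library quality in these means was not tested. Sparc, a matrix glycoprotein, had a lower mean after transfer than in both, at 31.6, 162.5 and 101.4. Among the 7 its median was 39.55 and it ran from 0 to 451.07. Itgb4 averaged 77.1, 291.6 and 97.5, and Lamb3 72.3, 352.1 and 103.1. Their highest values among the 7 were 414.76 and 441.64, with medians of 41.3 and 63.42. Vim, the mesenchymal filament gene, averaged 2.45 against 25.01 and was listed at 0 in the 7, and the simple epithelial keratin Krt8 averaged 6.35, 37.5 and 3.71. Inhba, an activin subunit, averaged 1.24 against 21.8 in all reporter-positive libraries. Cd44, part of the gate for reporter-positive cells, averaged 148.8, 372.3 and 100.7.

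Against the CD44-negative cells, envelope and stress genes were higher after transfer. Of 4072 genes compared, 3.95% were at least 2-fold higher and 4.49% at least 2-fold lower, with a median log2 of -0.18. After the rescaling they were 5.38% and 6.12% of 8789, with a median of -0.11. Over all 22156 genes detected in a cell of either group, 2.01% were higher and 2.45% lower (median -0.01). Of all 23 granular and envelope genes, 13 were at least 2-fold higher and 0 lower (median 1.16), and of all 12 stress genes 7 were higher and 0 lower (1.26). By the difference of mean log2(TPM + 1) these medians were 0.37 and 0.64. Sprr1a averaged 271.9 against 22.1 TPM, Cnfn, cornifelin, 49.3 against 1.60, S100a9 428.3 against 77.7 and Krt6b 1780.1 against 602. Defb14, a beta-defensin, averaged 18.1 and was listed at 0 in the CD44-negative cells. Krt1 differed little, at 644 and 562, with Krt10 at 236.6 and 122.97. Krt13, a keratin of internal epithelia, met the fold (11.8 against 0.0927) on only 1.13% of cells.

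Mitotic and class II genes were lower than in CD44-negative cells. Of all 22 G2 and mitosis genes 12 were at least 2-fold lower and 0 higher (median -1.04), with Ccnb1, cyclin B1, at 8.18 against 25.4. Of all 7 class II genes 6 were lower and 0 higher (median -2.46, and -0.57 by the difference of mean log2), with Cd74 at 2.07 against 37.5 and H2-Ab1 at 1.90 against 21.2. The interferon list was mixed: of all 29 genes 9 were at least 2-fold lower and 1 higher (median -0.17), while the 9 that reached a mean of 10 TPM had a median of 0.64. Among the lower was Ifi27l2a, at 1.34 against 79.3. None of the 17 class I genes was past 2-fold in either direction (median 0.32). Ccl27a, the keratinocyte chemokine, averaged 10.3 against 88.3, and Postn, periostin, 4.76 against 35.5. Xist was detected in 0% of cells after transfer and 47.3% of CD44-negative cells, and Uty, on the Y chromosome, in 56.5% and 24.2%, so the sex composition of the groups differs as well.

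**Figure D5:**
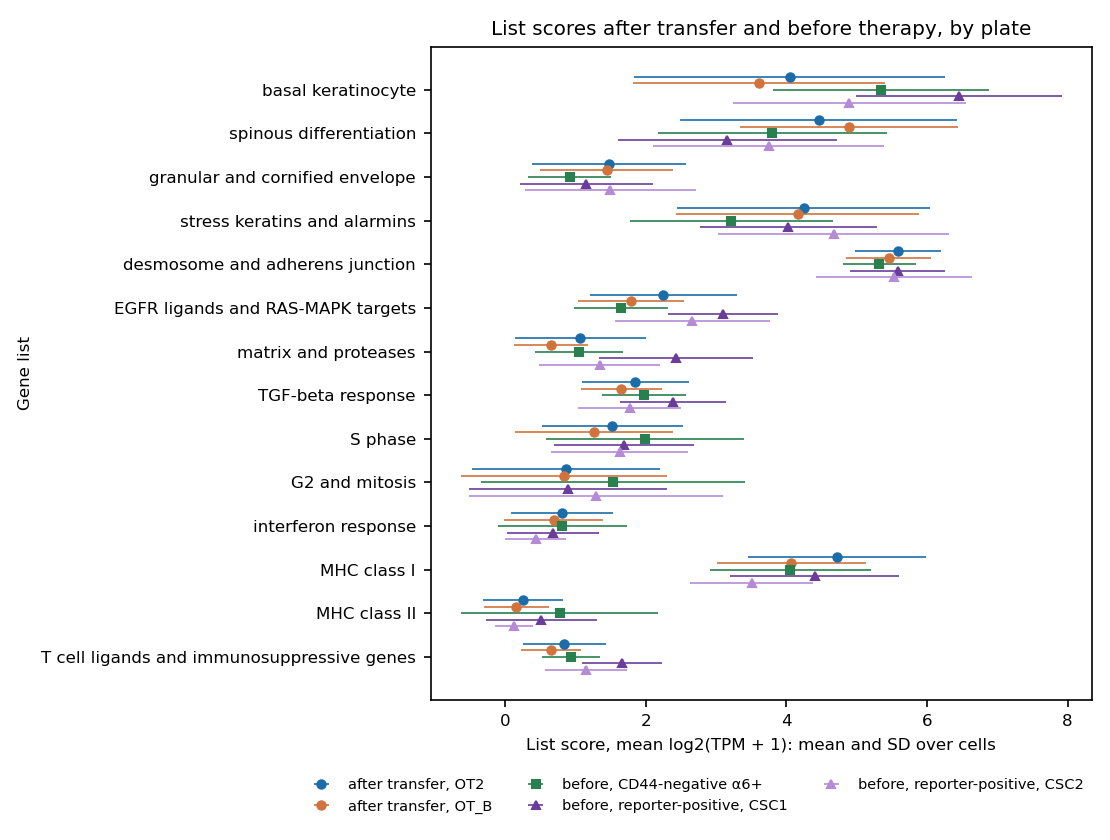
Points are mean list scores, as mean log2(TPM + 1), and bars are SDs over cells (x axis) for 14 gene lists (y axis), drawn per plate for the cells after transfer and for both groups before therapy. The matrix and protease list averages 1.07 on OT2 and 0.65 on OT_B against 2.43 on CSC1 and 1.34 on CSC2.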

How the data were processed

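Smart-seq2 full-length cDNA of single sorted cells was made into Nextera XT libraries and sequenced on a NextSeq instrument, per the labels' protocols. The authors deposited TPM values, made with Bowtie2 2.2.9 and RSEM 1.2.30 against mm10, per the submitters' processing notes. Handling of reads that match several genes, and of spike-ins, was not given in the sources used here. Genes per cell stood in for depth, which TPM does not keep, and ribosomal RNA rows lower all other values of a cell.

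The cells, the 26 gene lists and the comparisons were chosen with earlier results of these data known. Of 46517 gene rows, 46005 had an identifier in GENCODE M21, which gave types and coordinates, and 512 did not. The set of 8 ribosomal RNA rows, in which Lars2, a coding gene, was counted, and 92 ERCC rows were left out of all rankings. A gene counted as detected at TPM 1 or more. Variable genes were ranked by the SD of log2(TPM + 1) above its running median over 201 genes, among genes with a mean of at least 10 TPM. The 200 leading nuclear coding genes were clustered on 1 minus Spearman rho (average linkage, limit 0.65, at least 5 genes). Repeat libraries were mutual best matches by r with a margin of 0.05. Folds compare mean TPM + 1 and were named from 2-fold upward. Lists were counted over all measured members, with no filter on level, a choice made after seeing the data. The text names the 25 most expressed, 20 steadiest and 40 most variable genes, listed genes, 15 genes each way per comparison whose plate means do not cross, and 5 neighbours per marker. Neighbours of Cxcl9, S100a8 and Mt2 and some single genes were chosen after their values were seen. Promoters came from RefSeq (GRCm38.p6). No test was run, since no label names an animal, and intervals are exact binomial. Ranking, clustering, pairing and folds were tested on simulated data. Plates OT1 and OT_A entered only as repeat libraries, in place of the cells in 1 alternative, and OT_C and OT_D only to find reporter-positive libraries with a partner. Python 3.11.15, numpy 2.4.6, pandas 2.3.3, scipy 1.17.1 and matplotlib 3.10.9 were used. Some genes are not reported here.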

Additional observations from a re-analysis of the deposited data

How the results depend on the processing

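Of the values recomputed under an alternative, 86.5% stayed within the allowed spread. Another 71 moved further, and 3 that were at least 2-fold changed sign. Counting differences of any size, 21 values from 10 results had the other sign. The allowed spread depended on the kind of value. For a mean TPM it was the SD over single cells, a wide limit for genes that vary much between cells. The share that stayed within it is thus no measure of how firm those means are. The share of detected genes found in every cell (1.02%) was 2.01% on OT2 alone, 0.528% in the repeat libraries and 4.32% when 95% of cells sufficed. The share at least 2-fold lower than in reporter-positive cells (10.6%) was 6.86% with OT2 alone, 18.4% with OT_B alone and 15.7% without CSC1. The share higher (2.43%) was 3.596% with repeat libraries. Against CD44-negative cells, the share higher (3.95%) was 5.82% with OT2 alone, and the share lower (4.49%) was 7.73% with OT_B alone and 7.88% by the difference of mean log2. With TPM rescaled to leave out ribosomal and spike-in rows, shares higher and lower were 4.796% and 9.68% against reporter-positive and 5.38% and 6.12% against CD44-negative cells, over 8883 and 8789 genes. Against the 7 reporter-positive libraries without a partner, a choice made after seeing the data, they were 18.7% and 24.1%, the basal list median was 0.0066 instead of -1.17, the matrix list median 0.39 instead of -1.76 and the Sprr1a log2 fold 3.31 instead of -1.12. The cause was not tested. Across all alternatives run, rho of the basal and spinous lists stayed between -0.83 and -0.75 and that of the granular and stress lists between 0.77 and 0.84. The share of cells with at least 11 mitotic genes ran from 17.8% to 21.2%. At least 24 of the 25 most expressed and 29 of the 40 most variable genes were shared with each alternative. No paired analysis was possible because no test was run and no label names an animal. Genes per cell limit every share of cells with a transcript.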

Other observations

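Transcripts of immediate early, heat shock and glycolysis genes were detected in most of these keratinocytes after transfer. Of 18 immediate early genes, 8 were detected in over 90% of cells, Fos (median 125.4 TPM, highest 1071), Jun and Egr1 among them, and that list had almost no relation to genes per cell (rho -0.05). Dissociation of tissue is known to induce these genes, and its part in their level was not tested. Of 9 heat shock genes, 6 passed 90%, led by Hspa8 and Hspb1 (median 217.2 TPM, highest 5764). Of 20 hypoxia and glycolysis genes, 10 passed 90%, whereas Car9, a hypoxia marker, was detected in 11.3% of cells and Adm in 7.34%. Among 18 NRF2 and glutathione genes Gsta4 varied most, detected in 85.9% of cells and reaching 1814 TPM, and the list score followed the stress list (rho 0.56). Of 5 metallothionein and zinc genes, Mt1 was detected in 91% of cells and reached 3965 TPM, and the list score followed the basal list (rho 0.66).

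Mesenchymal and simple epithelial genes were rare. Vim was detected in 7.34% of cells, Snai1 and Twist1 in 1 cell each, and Zeb1, Zeb2 and Cdh2 in 0, while Snai2, a factor that basal keratinocytes also express, was detected in 58.2%. Krt8 was detected in 7 cells and Krt18 in 18, and Krt19 and Krt20 in 0. Of 18 TGF-beta response genes, Tgfbi was detected in 88.7% and Id1 in 80.2% of cells, and the list score followed the basal list (rho 0.70). Of 17 cell cycle inhibitor and p53 target genes, Cdkn1a alone passed 90% of cells, and Cdkn2a was detected in 29.4%. Among 19 chemokine and cytokine genes Cxcl14 was the most frequent at 67.2%, Il24 was detected in 17.5% with a highest TPM of 1125, and Il1b, Il6 and Cxcl5 were detected in 0 cells. Of 13 mitochondrial transcripts, 8 passed 90% of cells, as did 9 of 12 housekeeping genes. Among 4 Y-linked genes and Xist, Eif2s3y was detected in 81.4% of cells and Xist in 0.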
